A study of Homo sapiens with 6 samples.

Results

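The genes described here are those of the Wnt and Notch signalling pathways in an osimertinib-resistant lung cancer line. They were found by name in the deposited table: ligands, receptors, secreted inhibitors, transcription factors and feedback regulators of Wnt (the WNT, FZD, DKK, SFRP and RSPO families, the LRP5, LRP6, LGR, ROR, TCF7 and LEF1 genes, AXIN2, PORCN, RNF43 and a few more) and Notch receptors, ligands, fringe enzymes and HES or HEY repressors. The rule found 19 of the table's 4439 genes, 16 of Wnt and 3 of Notch. RNA was compared between HCC827OR (3 libraries), a derivative of the lung adenocarcinoma line HCC827 that grows in osimertinib, and parental HCC827 (3 libraries), which the labels call sensitive. HCC827 carries an activating mutation of the receptor kinase EGFR, which osimertinib inhibits, and both groups share that origin. Resistance was selected by culture in 10, 50, 100 and 500 nM and then 1 and 5 µM osimertinib, each for 1 month. The labels do not say whether HCC827OR is a single clone, whether the drug was present at harvest, or whether the 3 libraries of each line are separate cultures. Each p-value below is therefore set against a spread that may be technical.

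Wnt proteins are secreted lipid-modified ligands that bind Frizzled receptors. In the canonical branch they stabilise beta-catenin, which then acts with TCF and LEF factors on DNA, while other branches act through planar polarity proteins or calcium without beta-catenin. Notch receptors are cleaved when a ligand on a neighbouring cell binds them, and the released part joins the DNA-binding protein RBPJ to switch on repressors such as HES1. In lung epithelium both pathways are known for their part in development and in the choice between cell fates.

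The table holds only genes that the authors had called different, with an adjusted p below 0.05 and at least a 2-fold change. All 19 genes were therefore bound to differ, and the calls below describe size and spread and are not independent evidence of a difference. GENCODE 29 names 80 protein-coding genes that meet the rule, of which 19 (23.8%) were in the table, against 3488 of 19951 protein-coding genes in all (17.5%). The table held 5 of 19 WNT, 4 of 10 FZD, 2 of 4 DKK, 1 of 5 NOTCH and 1 of 7 HES genes, and none of the 4 SFRP, 4 RSPO, 2 JAG, 3 DLL and 2 HEY genes. Genes outside the table are not analysed here. The unit of the deposited expression signal is not named, so levels are compared between lines for a gene and not between genes. In bulk RNA, fewer cells of a kind and less RNA per cell cannot be told apart.

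Stretches of promoter sequence are shown for 3 genes because they carry, in letters, the short motif of the factor that ends the gene's pathway. They are the 250 bases before the RefSeq start of HES1 (GRCh38.p14, chr3:194135898-194136147, plus strand), of LFNG at the farther downstream of its listed starts (chr7:2517613-2517862, plus strand) and of DKK1 (chr10:52314031-52314280, plus strand). Capitals mark TGGGAA, the core bound by RBPJ, in HES1 and LFNG, and CTTTGA or its reverse complement, a core bound by TCF and LEF factors, in DKK1.
HES1: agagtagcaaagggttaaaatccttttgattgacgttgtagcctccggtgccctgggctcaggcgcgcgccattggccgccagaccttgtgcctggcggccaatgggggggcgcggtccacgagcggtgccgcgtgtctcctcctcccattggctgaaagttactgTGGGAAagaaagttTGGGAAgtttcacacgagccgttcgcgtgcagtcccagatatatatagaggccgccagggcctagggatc
LFNG: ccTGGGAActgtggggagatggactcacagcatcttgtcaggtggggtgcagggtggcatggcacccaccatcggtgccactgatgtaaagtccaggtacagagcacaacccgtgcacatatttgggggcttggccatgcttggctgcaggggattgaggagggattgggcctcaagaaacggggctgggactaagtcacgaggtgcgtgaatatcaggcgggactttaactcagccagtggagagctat
DKK1: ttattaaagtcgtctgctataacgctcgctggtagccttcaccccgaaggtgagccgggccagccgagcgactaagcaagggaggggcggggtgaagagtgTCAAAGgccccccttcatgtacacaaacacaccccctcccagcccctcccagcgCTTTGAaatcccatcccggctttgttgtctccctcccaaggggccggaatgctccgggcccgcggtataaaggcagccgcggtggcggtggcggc

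RefSeq listed 20 promoters for 13 of the 19 genes. Both strands of the 250 bases were searched, and no matches overlapped. TGGGAA was present in 5 of these promoters (HES1, LFNG, TCF7, WNT5A and WNT9A), against 20.8% of all 35116 RefSeq promoters of this length. CTTTGA was present in 2 (DKK1 and PORCN), against 11.2% of all promoters. CACNAG, the N-box bound by HES repressors, was present in 7 (FZD9, HES1, LFNG, NOTCH4, RNF43, WNT5A and WNT7A), against 32% of all promoters. HES1 held 2 copies of TGGGAA, the first bases lying at -84 and -70 from its start, and 3 of CACNAG. These matches are letters in a window and say nothing of binding in these cells.

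Of the 19 genes 11 were higher and 8 lower in HCC827OR in the authors' deposited table (57.9% and 42.1%), beside 53.9% higher and 46.1% lower over the whole table. A signal of at least 1 in at least 3 libraries was reached by 15 of them, 6 of which (WNT5A, FZD7, RNF43, TCF7, NOTCH4 and DKK3) got there only through the line where they were higher. By limma on log2(signal + 1), with Benjamini-Hochberg adjustment over all 3332 genes tested and a threshold of 0.05, 9 of the 15 were called higher, 5 lower and 1 not called, where 52.5% of all genes tested were called higher, 45% lower and 97.5% either way. The 3 libraries of HCC827OR and the 3 of parental HCC827 did not overlap in 17 of the 19 genes, against 95.2% of the table's genes. These shares lay near those of the whole table, so what follows is a description of which genes went which way.

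**Figure D1:**
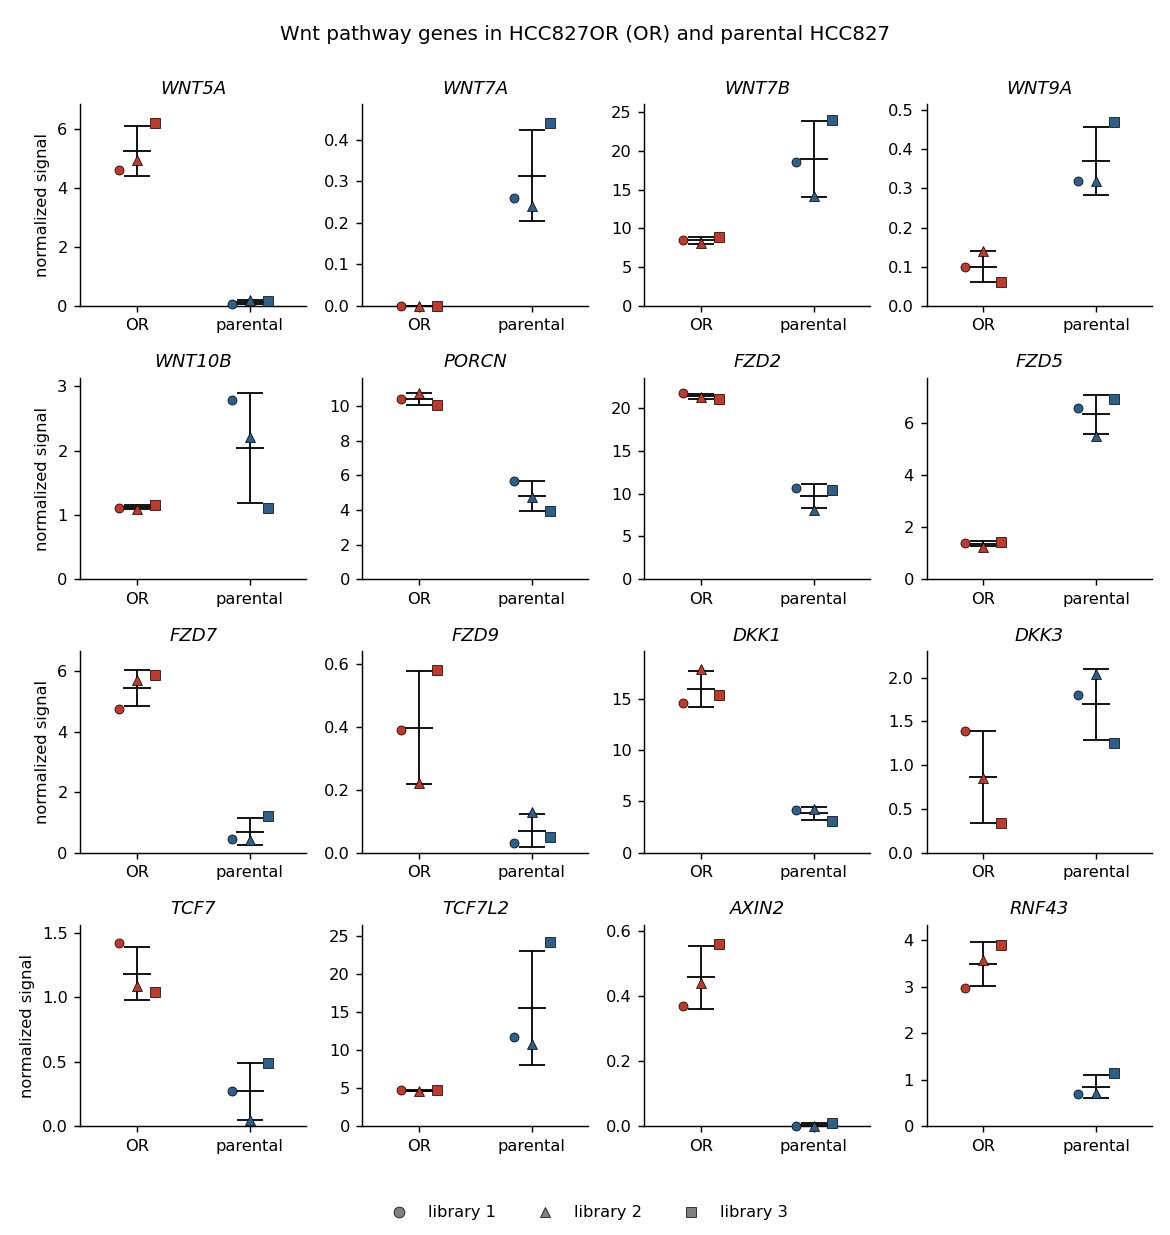
Normalized expression signal (vertical axes from 0, deposited values, unit not named) of the 16 Wnt genes in each library of HCC827OR (OR, red) and parental HCC827 (blue), with the mean and SD of 3 libraries as bars. WNT5A, PORCN, FZD2, FZD7, FZD9, DKK1, TCF7, AXIN2 and RNF43 stand higher in all 3 HCC827OR libraries, WNT7A, WNT7B, WNT9A, FZD5 and TCF7L2 lower in all 3, and the lines overlap in WNT10B and DKK3.

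Among the ligands, WNT5A rose and WNT7B fell in HCC827OR, WNT10B did not pass the test, and WNT7A and WNT9A were too low to be tested. WNT5A, a ligand best known for signalling without beta-catenin (ENSG00000114251, GRCh38 chromosome 3, 55465715 to 55490539, minus strand), had signals of 4.6, 4.93 and 6.2 in HCC827OR libraries 1 to 3, against 0.06, 0.2 and 0.15 in parental libraries 1 to 3. All parental libraries were at 0.2 or less, far below the lowest HCC827OR library. The means were 5.24 ± 0.845 in HCC827OR and 0.137 ± 0.071 in parental cells (SD, n = 3 each), a ratio of 38.4 and a log2 change of 2.45 (SE 0.14, limma adjusted p = 5.88e-06). The parental signals are near 0, so the size of the change is uncertain. Over the alternatives the log2 change ran from 1.91 to 5.29, and WNT5A reached the filter only through HCC827OR. WNT5A-AS1 overlaps the gene on the opposite strand, and as no source states whether strand was used in counting, their reads cannot be told apart.

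WNT7B, a ligand made by the epithelium of the developing mouse lung (ENSG00000188064, chromosome 22, 45920362 to 45977129), had 8.44, 8.04 and 8.88 in HCC827OR libraries, against 18.58, 14.2 and 23.98 in parental libraries. The HCC827OR libraries lay close together and all below the lowest parental one. The parental mean was 2.24 times the HCC827OR mean, and the log2 change was -1.05 (SE 0.19, limma adjusted p = 0.00136). WNT7A, the gene of a closely related ligand (chromosome 3, 13816258 to 13880121), was listed at 0 in all 3 HCC827OR libraries, against 0.26, 0.24 and 0.44 in parental ones, so no fold is given. WNT9A (chromosome 1, 227918656 to 227947898) had 0.1, 0.14 and 0.06 in HCC827OR libraries, against 0.32, 0.32 and 0.47 in parental libraries, and the lines did not overlap.

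WNT10B, another Wnt ligand gene (chromosome 12, 48965340 to 48971763), had 1.11, 1.09 and 1.16 in HCC827OR libraries, against 2.79, 2.21 and 1.11 in parental libraries. Parental library 3 equalled HCC827OR library 1, so the lines overlapped. The log2 change was -0.48 (SE 0.22, limma adjusted p = 0.0654) and did not pass the test. Without parental library 3 it was -0.72 and passed (limma adjusted p = 0.00085), and over all alternatives this p lay between 0.00085 and 0.194. In the authors' deposited table WNT10B was called lower with an adjusted p of 0.029.

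PORCN, the acyltransferase that attaches the lipid Wnt ligands need to be secreted and to bind Frizzled (ENSG00000102312, chromosome X, 48508962 to 48520814), rose in HCC827OR. It had 10.4, 10.75 and 10.08 in HCC827OR libraries, against 5.68, 4.78 and 3.96 in parental libraries. All HCC827OR libraries lay above 10 and all parental ones below 6. The ratio of means was 2.17 and the log2 change 0.98 (SE 0.15, limma adjusted p = 5.82e-04). With libraries scaled to the median gene the log2 change was 0.44 (limma adjusted p = 0.0489).

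Of the Frizzled receptors in the table, FZD2 and FZD7 rose, FZD5 fell, and FZD9 was too low to be tested. FZD7 (ENSG00000155760, chromosome 2, 202034587 to 202038445) had 4.76, 5.7 and 5.87 in HCC827OR libraries, against 0.46, 0.41 and 1.21 in parental libraries. The highest parental library was the third, still well below every HCC827OR library. The ratio of means was 7.85, or 12.5 without parental library 3, and the log2 change was 1.95 (SE 0.21, limma adjusted p = 8.82e-05). FZD2 (ENSG00000180340, chromosome 17, 44557459 to 44559570) had 21.7, 21.26 and 21.07 in HCC827OR libraries, against 10.69, 8.13 and 10.43 in parental libraries. The lines were separated by a wide gap compared with the spread within HCC827OR, and the ratio was 2.19 (log2 change 1.06, SE 0.14, limma adjusted p = 2.34e-04). With libraries scaled to the median gene the log2 change of FZD2 was 0.52 (limma adjusted p = 0.00549).

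FZD5 (ENSG00000163251, chromosome 2, 207762586 to 207769563) went the other way, with 1.4, 1.25 and 1.43 in HCC827OR libraries, against 6.56, 5.49 and 6.91 in parental libraries. Every HCC827OR library was below every parental one. The parental mean was 4.65 times the HCC827OR mean (log2 change -1.63, SE 0.14, limma adjusted p = 3.78e-05). FZD5 and FZD7 both lie on chromosome 2 and changed in opposite directions. FZD9 (chromosome 7, 73433783 to 73436120) had 0.39, 0.22 and 0.58 in HCC827OR libraries, against 0.03, 0.13 and 0.05 in parental libraries. The lines did not overlap, and the ratio of these low values was 5.67, or 9.92 without parental library 2.

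The secreted inhibitors DKK1 and DKK3 went in opposite directions. DKK1 binds the Wnt co-receptors LRP5 and LRP6 and blocks them, and its gene is also a target of beta-catenin signalling (ENSG00000107984, chromosome 10, 52314296 to 52318042). It had 14.59, 17.94 and 15.36 in HCC827OR libraries, against 4.16, 4.26 and 3.05 in parental libraries. Every HCC827OR library was above every parental one, with a ratio of means of 4.18 and a log2 change of 1.82 (SE 0.16, limma adjusted p = 4.11e-05). The antisense gene PRKG1-AS1, which overlaps it, had 0.45, 0.53 and 0.23 in HCC827OR libraries, against 0.33, 0.2 and 0.03 in parental libraries.

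DKK3, a divergent member of the Dickkopf family (ENSG00000050165, chromosome 11, 11963106 to 12009769), had 1.39, 0.85 and 0.34 in HCC827OR libraries, against 1.8, 2.04 and 1.25 in parental libraries. HCC827OR library 1 lay above parental library 3, so the lines overlapped, and the HCC827OR libraries spread widely. The log2 change was -0.56 (SE 0.23, limma adjusted p = 0.0442), just inside the threshold. It did not pass without parental library 1 (adjusted p = 0.108), parental library 2 (0.127), HCC827OR library 2 (0.086) or HCC827OR library 3 (0.134), and the adjusted p ranged from 0.0044 to 0.134 over the alternatives.

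**Figure D2:**
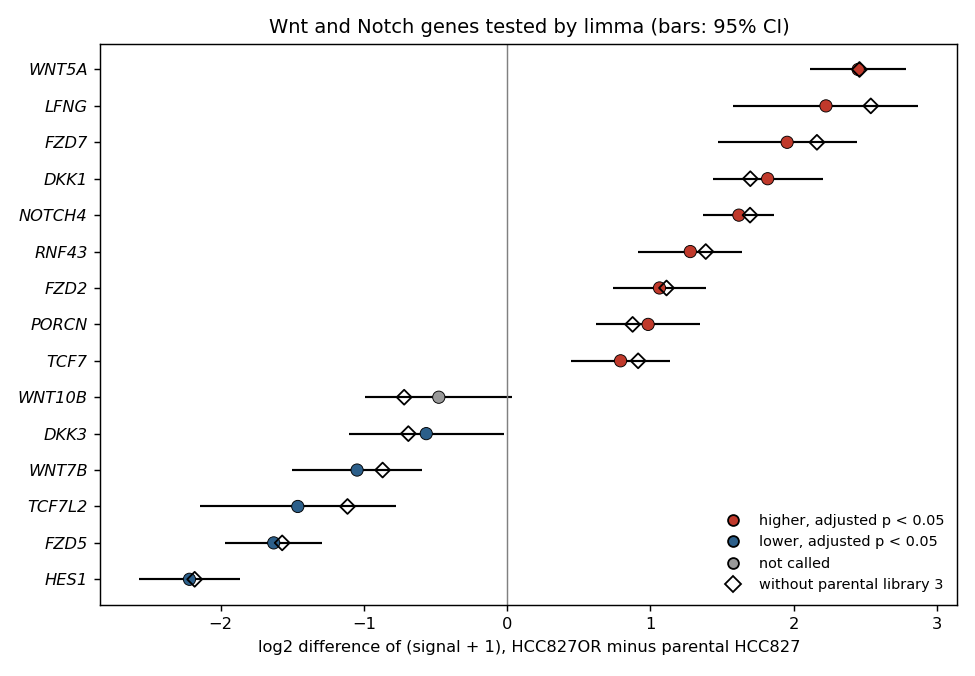
Change of the 15 tested Wnt and Notch genes on the scale of log2(signal + 1), HCC827OR minus parental HCC827, with limma's 95% confidence interval as bars and the change without parental library 3 as open diamonds. With all 6 libraries WNT5A has the highest value (2.45, LFNG 2.23) and HES1 the lowest (-2.22), without parental library 3 LFNG (2.54) stands above WNT5A (2.46), and the interval of WNT10B, drawn grey, reaches past 0. The order depends on the pseudocount of 1. At 0.01 (not drawn) WNT5A is 5.29, and NOTCH4 (5.05), FZD7 (3.13) and TCF7 (2.54) lie above LFNG (2.29).

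The DNA-binding partners of beta-catenin in the table, TCF7L2 and TCF7, changed in opposite directions. TCF7L2 (ENSG00000148737, chromosome 10, 112950250 to 113167678) had 4.72, 4.56 and 4.7 in HCC827OR libraries, against 11.72, 10.8 and 24.21 in parental libraries. Parental library 3 was far above the other parental libraries, and all 3 lay above HCC827OR. The parental mean was 3.34 times the HCC827OR mean, or 2.42 times without parental library 3, and the log2 change was -1.46 (SE 0.29, limma adjusted p = 0.00193).

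TCF7 (ENSG00000081059, chromosome 5, 134114711 to 134151865) had 1.42, 1.09 and 1.04 in HCC827OR libraries, against 0.27, 0.05 and 0.49 in parental libraries. The lowest HCC827OR library was above the highest parental one, although both lines were low. The ratio of means was 4.38, or 7.4 without parental library 3, and the log2 change was 0.79 (SE 0.15, limma adjusted p = 0.00142). With libraries scaled to the median gene it was 0.25 (limma adjusted p = 0.084; range over the alternatives 3.02e-04 to 0.084). SKP1 overlaps TCF7 on the opposite strand, and the antisense gene AL158212.2 overlaps TCF7L2, so both values are uncertain.

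Of the feedback regulators that beta-catenin signalling is known to induce, RNF43 rose in HCC827OR and AXIN2 was too low to be tested. RNF43, a ubiquitin ligase that removes Frizzled receptors from the cell surface (ENSG00000108375, chromosome 17, 58352500 to 58417595), had 2.98, 3.58 and 3.91 in HCC827OR libraries, against 0.7, 0.72 and 1.14 in parental libraries. Every parental library was far below the lowest HCC827OR library. The ratio of means was 4.09 and the log2 change 1.28 (SE 0.15, limma adjusted p = 1.65e-04). SUPT4H1 and the antisense gene TSPOAP1-AS1 overlap RNF43, and TSPOAP1-AS1 had 0.45, 0.87 and 0.7 in HCC827OR libraries, against 0.12, 0.04 and 0 in parental libraries. AXIN2, a scaffold of the complex that degrades beta-catenin (ENSG00000168646, chromosome 17, 65528563 to 65561647), had 0.37, 0.44 and 0.56 in HCC827OR libraries, against 0, 0 and 0.01 in parental libraries. The lines did not overlap, and no fold is given because 2 parental libraries were listed at 0. The protein-coding gene AC004805.1 overlaps AXIN2 on the same strand, so its value is uncertain.

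When no filter on low values was used, limma called AXIN2 and FZD9 higher (limma adjusted p = 2.87e-04 and 0.0102). It called WNT7A and WNT9A lower (limma adjusted p = 0.00166 and 0.00408). Of all 4439 genes then tested 2310 were called higher, 1887 lower and 242 were not called. These calls therefore do not set AXIN2, FZD9, WNT7A and WNT9A apart from the rest of the table. Their signals were 0.58 or less in every library, and the table holds only genes already called different.

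Of the 3 Notch genes that the rule found, NOTCH4 and LFNG rose and HES1 fell. NOTCH4 (ENSG00000204301, chromosome 6, 32194843 to 32224067), a receptor known mainly from blood vessels, had 2.26, 2.39 and 2.36 in HCC827OR libraries, against 0.03, 0.03 and 0.21 in parental libraries. The HCC827OR libraries were nearly equal, and parental library 3 was the only parental one above 0.03. The ratio of means was 26, or 77.9 without parental library 3, and the log2 change was 1.62 (SE 0.1, limma adjusted p = 9.49e-06). NOTCH4 overlaps GPSM3 on the same strand, so its value is uncertain.

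LFNG, the lunatic fringe glycosyltransferase that lengthens sugars on Notch and so changes which ligands activate it (ENSG00000106003, chromosome 7, 2512529 to 2529177), had 91.18, 88.14 and 86.98 in HCC827OR libraries, against 16.88, 12.34 and 28.62 in parental libraries. The lines were clearly apart, and parental library 3 again lay closest to HCC827OR. The ratio of means was 4.6, or 6.08 without parental library 3, and the log2 change was 2.23 (SE 0.27, limma adjusted p = 1.86e-04).

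HES1, a repressor of the bHLH class and a well-known Notch target whose promoter, printed above, holds a pair of TGGGAA cores (ENSG00000114315, chromosome 3, 194136145 to 194138732), had 2.67, 2.08 and 1.93 in HCC827OR libraries, against 14.1, 13.05 and 14.69 in parental libraries. The parental libraries, including the third, agreed closely. The parental mean was 6.26 times the HCC827OR mean (2.23 ± 0.391 in HCC827OR and 13.9 ± 0.831 in parental cells, SD, n = 3 each), and the log2 change was -2.22 (SE 0.15, limma adjusted p = 1.08e-05).

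**Figure D3:**
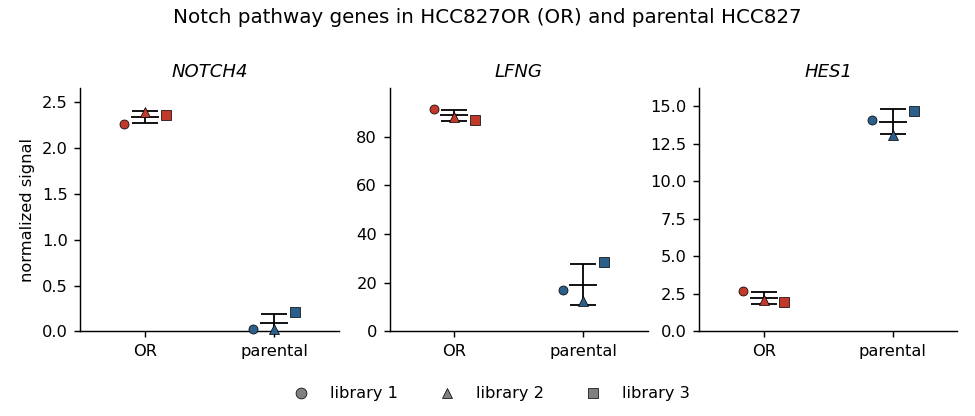
Normalized expression signal (vertical axes from 0, deposited values, unit not named) of the Notch receptor NOTCH4, the fringe enzyme LFNG and the target gene HES1 in each library, with the mean and SD of 3 libraries as bars. NOTCH4 and LFNG lie higher and HES1 lower in all 3 HCC827OR libraries.

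Parental library 3 lay outside the range of parental libraries 1 and 2 in 16 of 19 genes (84.2%), against 77.9% of the table's 4439 genes. Any 1 of 3 like libraries would lie outside the range of the other 2 in most genes, so being outside is itself no sign of a deviant library. In 8 of the 16 it lay on the side of HCC827OR (such as LFNG, FZD7 and WNT10B) and in the other 8 on the far side (such as TCF7L2, WNT7B and PORCN). Over the 15 tested genes its median difference from the other parental libraries was 0.18 on the log2 scale, against 0.13 over all tested genes. The 9 calls of a rise and the 5 of a fall were also made without it, and WNT10B was then called lower as well.

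Other genes of both pathways were described from lists of 193 genes in all, of which 50 were in the table and 42 were tested. By limma 27 of these were higher and 15 lower, where 52.5% of all 3332 genes tested were higher, 45% lower and 97.5% called either way. Their median log2 change was 0.94, against 0.74 over all genes tested. GPC4, KREMEN1, TRABD2A, DACT1, PYGO1, CELSR2, VANGL2, L1CAM, TNFRSF19, CCN3, CNTN1 and DNER, among others, reached the filter only through HCC827OR. Some genes called lower reached it only through parental cells. The filter itself favoured the direction of all such genes, so their calls and these counts are descriptive. With libraries scaled to the median gene 22 were higher and 15 lower. That scaling gave 1449 higher, 1548 lower and 335 not called over all 3332 genes tested. Wnt secretion and extracellular modulators had 9 of 23 genes in the table, 6 higher and 3 lower (median log2 change 0.73). The glypican GPC4, a cell surface proteoglycan that binds Wnt ligands, had 17.49, 17.98 and 18.7 in HCC827OR libraries, against 0.2, 0.29 and 0.54 in parental libraries. That was a ratio of 52.6 and the largest log2 change of the 42 genes (3.83, SE 0.15, limma adjusted p = 1.39e-06). KREMEN1, a DKK1 receptor, rose 4.74-fold, or 7.3-fold without parental library 3. The Wnt-cleaving protease genes TRABD2A and TRABD2B split, TRABD2A averaging 4.16 ± 0.347 in HCC827OR and 0.893 ± 0.553 in parental cells, and TRABD2B 1.63 ± 0.216 in HCC827OR and 4.26 ± 0.382 in parental cells (SD, n = 3 each). The ratio of TRABD2A was 4.65, or 7.11 without parental library 3.

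Of the cytoplasmic and nuclear machinery of beta-catenin 3 of 43 genes were in the table, and all 3 were higher, as were 52.5% of all genes tested. DACT1 and PYGO1 reached the filter only through HCC827OR. The Dishevelled-binding gene DACT1 had 2.16, 2.59 and 2.48 in HCC827OR libraries, against 0, 0 and 0.03 in parental libraries. TNIK, a kinase that binds TCF7L2, rose 4.54-fold, and PYGO1, a nuclear partner of beta-catenin, rose 4.25-fold. In the planar polarity and calcium branch 10 of 35 genes were in the table and 9 were tested, 5 higher and 4 lower (median log2 change 0.80). The phospholipase gene PLCB4 rose 6-fold, the receptor-like PTK7 3.48-fold, and the planar polarity genes CELSR2 and VANGL2 4.32-fold and 4.81-fold. The calcium-responsive factor NFATC4 fell, averaging 1.95 ± 0.363 in HCC827OR and 4.9 ± 0.383 in parental cells (SD, n = 3 each).

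Of 29 Wnt target genes 12 were in the table, 8 higher and 4 lower by the authors' deposited call. Of these 6 were tested, 5 higher and 1 lower (median log2 change 1.38), beside 52.5% higher and 45% lower over all genes tested. The genes that missed the filter were PROM1, EPHB3 and FGF9, lower in HCC827OR, and NRCAM, TWIST1 and GREM1, higher. L1CAM and TNFRSF19 passed it only through HCC827OR. The adhesion gene L1CAM had 12.11, 12.59 and 10.24 in HCC827OR libraries, against 0.5, 0.24 and 0.85 in parental libraries, a ratio of 22. The transcription factor gene JUN rose 2.23-fold, and TNFRSF19, a receptor of the TNF family, rose 6.1-fold, or 11.1-fold without parental library 3. The cyclin gene CCND1, which stands on the Notch target list too and is driven by EGFR signalling as well, fell, with 33.77, 32.54 and 31.17 in HCC827OR libraries, against 111.3, 100.2 and 99.9 in parental libraries.

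Of the Notch processing, trafficking and nuclear machinery 7 of 40 genes were in the table and 6 were tested, 2 higher and 4 lower (median log2 change -0.67). The Deltex ubiquitin ligase genes split, DTX3 rising 7.07-fold, and DTX3L and DTX4 falling. DTX3L averaged 11.6 ± 0.85 in HCC827OR and 36 ± 5.05 in parental cells, and DTX4 2.98 ± 0.448 in HCC827OR and 7.65 ± 1.33 in parental cells (SD, n = 3 each). NUMBL, a relative of the Notch antagonist NUMB, rose 2.43-fold. All 3 non-canonical ligand or modulator genes in the table (of 12) were higher, again beside 52.5% of all genes tested. Each reached the filter only through HCC827OR. CCN3, a secreted matricellular protein gene, rose 9.75-fold, the contactin CNTN1 4.67-fold and DNER 2.24-fold, and without parental library 3 CNTN1 rose 7.36-fold and DNER 3.5-fold.

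Of 17 Notch target genes 7 were in the table, 3 higher and 4 lower (median log2 change -1.23). The cell cycle inhibitor CDKN1A fell, averaging 3.18 ± 0.207 in HCC827OR and 16.6 ± 3.01 in parental cells. The transcription factor genes SNAI2 and BHLHE41 rose, SNAI2 averaging 32.7 ± 0.975 in HCC827OR and 2.19 ± 1.11 in parental cells, and BHLHE41 25.9 ± 0.549 in HCC827OR and 7.44 ± 1.11 in parental cells (SD, n = 3 each).

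**Figure D4:**
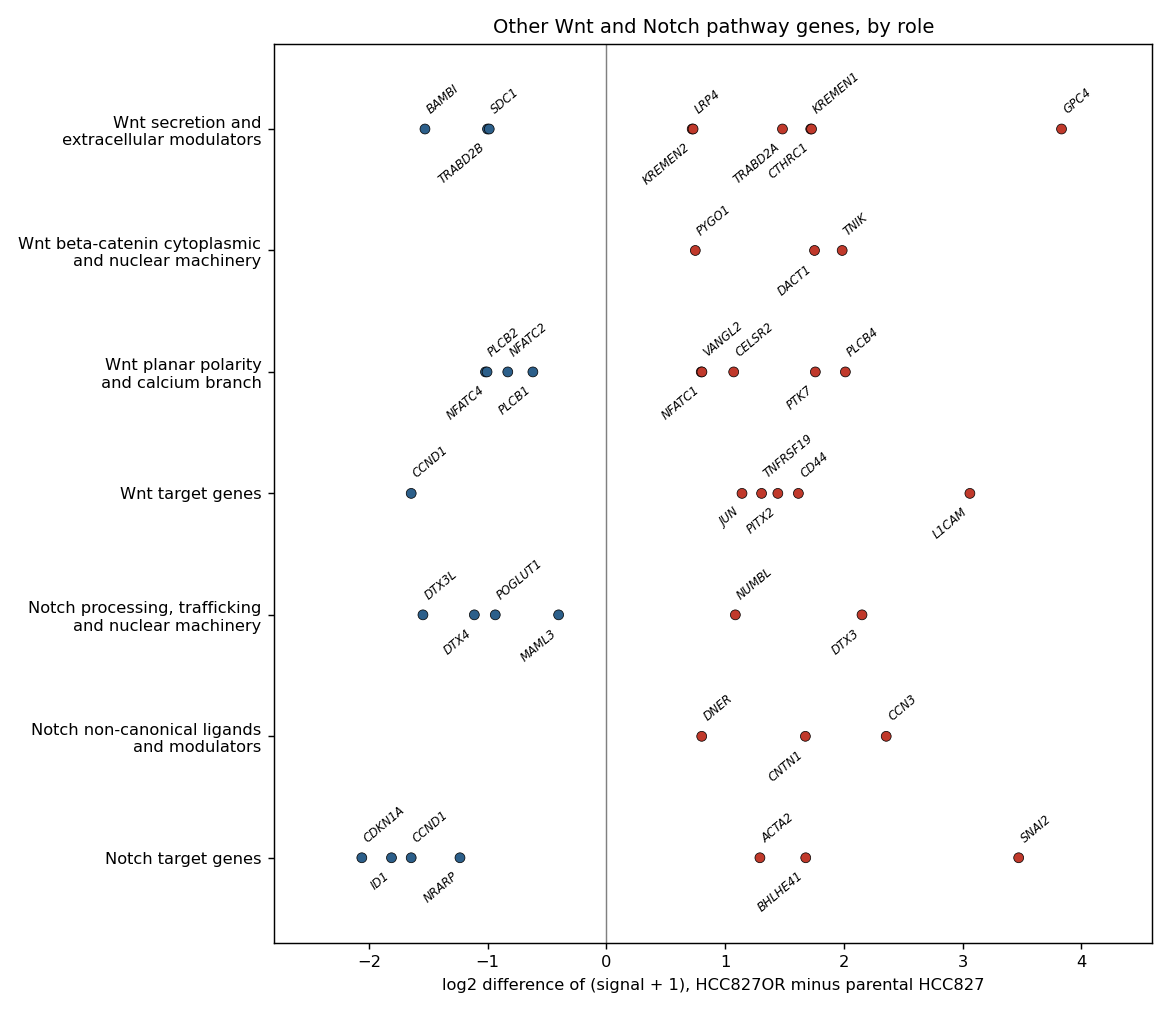
Change of each tested gene of the 7 lists (1 point a gene, red higher and blue lower) on the scale of log2(signal + 1), HCC827OR minus parental HCC827. GPC4 lies farthest to the right (3.83), all 3 points of the beta-catenin machinery lie to the right of 0, and the Notch target list has points on both sides.

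Epithelial and mesenchymal marker genes moved between the lines as well. Of 15 epithelial markers 12 were in the table and all 12 fell, their summed signal being 2367 to 2407 in HCC827OR libraries and 7554 to 8995 in parental libraries. Of 15 fibroblast and mesenchymal markers 10 were in the table, and 8 of 8 tested rose, with a summed signal of 1614 to 1746 in HCC827OR libraries and 188 to 235 in parental libraries. Most of the epithelial sum came from KRT7, KRT18 and KRT19, and most of the mesenchymal sum from FN1 and VIM. The sums therefore say little of the other markers. By limma 45% of all genes tested were called lower and 52.5% higher. Markers outside the table, which holds only genes already called different, are not seen here. NKX2-1, a lung lineage factor, had 0.12, 0.12 and 0.52 in HCC827OR libraries, against 15.64, 14.18 and 12.19 in parental libraries. None of the epithelial or mesenchymal markers in the table was at 0 in every library of a line. The table held 1 of 10 leukocyte, 3 of 8 endothelial and 1 of 10 retina markers, with summed signals in HCC827OR libraries of 1.8 to 2.14, 1.11 to 1.62 and 0.14 to 0.28, against 0.57 to 0.84, 4.96 to 10.2 and 0.03 to 0.06 in parental libraries. The endothelial sum was mostly PECAM1, with means of 1.08 in HCC827OR and 6.77 in parental cells. The other endothelial markers, VWF and TEK, were higher in HCC827OR (means 0.077 and 0.12) than in parental cells (0.01 and 0.0067). The part of this shift in the values of the Wnt and Notch genes was not tested.

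The table's genes within 1 Mb of each of the 19 genes went both ways around most of them. Around FZD2 14 of 16 were higher, around NOTCH4 11 of 14 were higher, around FZD7 5 of 6 were lower and around FZD9 9 of 11 were lower. FZD7 and FZD9 thus stood against most of their neighbours, as did LFNG, WNT7B, WNT10B, WNT7A and WNT9A, and DKK3 against its only one. FZD2 and NOTCH4 stood with most of theirs, as did FZD5, TCF7L2, RNF43, DKK1 and AXIN2. WNT5A, HES1 and PORCN had as many neighbours higher as lower, and TCF7 had none. By the authors' deposited call 53.9% of all 4439 genes were higher and 46.1% lower. Whether any neighbourhood departed from these shares was not tested.

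The authors' deposited fold changes differed from ratios of the deposited signals in some of these genes. Over 3592 genes above 0 in all libraries, the authors' deposited log2 fold change minus the log2 ratio of means had a median of -0.05, with 5th and 95th percentiles of -0.59 and 0.49. NOTCH4 had 6.09 in the authors' deposited table and 4.70 by ratio of means, and DKK3 had -1.68 in the authors' deposited table and -0.98 by ratio of means. AXIN2 and WNT7A, which were at or near 0 in parental cells or in HCC827OR, had folds of 86.9 and 0.00761 (HCC827OR over parental HCC827) in the authors' deposited table.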

How the data were processed

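RNA sequencing covered 3 HCC827OR libraries and 3 parental HCC827 libraries, with lines and library numbers read from the titles. The authors deposited 1 table. In it the authors give each gene's normalized expression signal in each library, together with line means. The authors' own comparison is deposited beside it as a fold ratio, its log2 and p-values with and without adjustment. The test, the unit of the signal and its normalization are not given in the sources used here, the signal has 2 decimals, and depth is therefore unknown. The tools listed, per the submitters' processing notes, are Bowtie 0.12.2 with the mouse build mm8, and the labels' extraction protocol speaks of retinas. Both conflict with human lung cancer cells. No step was taken from them.

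Members were found by gene name. Symbols for the other lists were matched by gene ID (4414 IDs matched, 25 did not), and positions are those of GENCODE release 29 (GRCh38). The 3332 genes that reached a signal of 1 in 3 or more libraries were tested with limma 3.58.1 (R 4.3.3) on log2(signal + 1) with a mean-variance trend, without a block. Calls are at a Benjamini-Hochberg adjusted p below 0.05 over all genes tested. The procedure was tested on simulated data with known changes. Fold changes on the log2(signal + 1) scale understate the change of low genes. Plain folds are ratios of group means, given only where every library was above 0. Alternatives covered pseudocount, filter, scaling, trend, replicate block, threshold and leaving out each library. The members and lists were chosen with earlier results of these data known. Every member is named, and of each pathway list up to 4 tested genes with the smallest adjusted p, plus any needed to show its direction (NFATC4). Because the table holds normalized values, no count test was run.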

Additional observations from a re-analysis of the deposited data

How the results depend on the processing

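No tested Wnt or Notch gene changed direction under any alternative. Of 203 values of single genes under the alternatives, 192 stayed on their side of the threshold, and 12 of the 15 genes did so under every alternative run. The exceptions were DKK3, TCF7 (not called with libraries scaled to the median gene) and WNT10B. Leaving out each library in turn, 9 genes were called higher every time and 4 to 6 lower. DKK3 was also not called with a pseudocount of 0.1 (limma adjusted p = 0.0617) or 0.01 (0.0759) or without a filter (0.0516), and WNT10B was called lower with libraries scaled to the median gene (0.00711) or quantile normalized (0.01). Scaling to the median gene moved the median log2 change of all genes from its value of 0.74 by -0.54 and quantile normalization moved it by -0.34. With a filter at a signal of 5 in 3 libraries, 8 genes were tested, 4 called higher and 4 lower. Of 6 Wnt genes 3 were higher and 3 lower, of 2 Notch genes 1 was higher and 1 lower, and of 26 other pathway genes 16 were higher and 10 lower. Of all 2020 genes then tested 987 were higher and 1012 lower, and their median log2 change was -0.69. Fewer genes are tested there by construction.

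Deviations of same-numbered libraries from their line means had correlations of 0.0256, 0.0258 and -0.0281. Differently numbered libraries had values from -0.0946 to 0.0658. With 3 libraries a line such values cannot show whether the numbers pair them, and the labels do not say. With a replicate block 9 genes were called higher and 5 lower, as without it. Depth is unknown, and signals near 0 with 2 decimals limit AXIN2, WNT7A, WNT9A, FZD9, NOTCH4, WNT5A and TCF7.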
